A study of Mus musculus with 6 samples.

Results

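The Hedgehog genes described here are 9 genes of the receptor and transcription factor core of the pathway: Ptch1, Smo, Hhip, Boc, Cdon, Gas1, Gli1, Gli2 and Gli3. They were taken by gene symbol from 18193 genes measured with a probe set of 1 symbol, with earlier results of these data known. Together they were read by 24 of the 34945 such probe sets. For each gene the probe set of highest mean level (6 arrays) leads, and the others serve as a check. The samples were 3 FHL2-/- clones (KO-E, KO-H and KO-J), called knockout, and 3 wild type clones (WT-E, WT-F and WT-I), each a spontaneously immortalized line of mouse embryonic fibroblasts with 1 array. FHL2 is an adaptor protein built of LIM domains, and the question was which transcripts differ in fibroblasts that lack it. The labels give no treatment, passage, sex or embryo of origin, and each array reports on 1 clone that grew out in culture. No source used here says whether they derive from different embryos, so p-values measure the spread between clones.

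Hedgehog ligands (Shh, Ihh and Dhh) are secreted proteins that pattern limbs, skin, gut and skeleton, largely by acting on mesenchymal cells such as fibroblasts. Ptch1 is their receptor and, without ligand, holds the membrane protein Smo inactive. Ligand bound to Ptch1, helped by the co-receptors Boc, Cdon and Gas1, frees Smo to act in the primary cilium, where it turns Gli2 and Gli3 from repressor or inactive forms into activators. Gli1, Ptch1 and Hhip, a decoy that binds ligand at the cell surface, are themselves induced by Gli activators, so their RNAs are the usual readout of the pathway.

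Levels are log2 intensities, and differences are knockout minus wild type on that scale, with the standard error (SE) of a limma fit over all genes (n = 3 clones per genotype). A gene is said to rise or fall where its Benjamini-Hochberg adjusted p lay under 0.05. The co-receptors Boc and Gas1 rose in knockout clones, Boc by 4.19-fold and Gas1 by 1.94-fold. The other 7 genes did not pass. Ptch1 came closest, with a lower value in every knockout clone. So 2 of 9 genes rose and 0 fell, where 9.04% of all genes rose, 10.0% fell and 19.0% did either. At an unadjusted p under 0.05 in the same fit, 3 of the 9 were higher and 2 lower, against 33.2% of all genes in either direction. Values of the genotypes did not overlap in 4 of the 9 genes and in 38.9% of all genes. The median difference was 0.46 over the 9 genes and 0.04 over all genes, and the median size regardless of sign was 0.51 over the 9 and 0.23 over all. All of the 9 but Gli1 lay above the median level of all genes, at percentile 51.1 or higher. In a fit of genes at or above that level alone, 3142 passed, 1410 higher and 1732 lower, against 3464 of all 18193. That fit tested far fewer genes than 18193, so its 3142 are a larger share of the genes tested. Of the 9, without Gli1, 2 rose there and 1, Ptch1, fell. Shares called over all genes are thus below those at such levels, and the medians over all genes also include genes low on the scale.

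**Figure D1:**
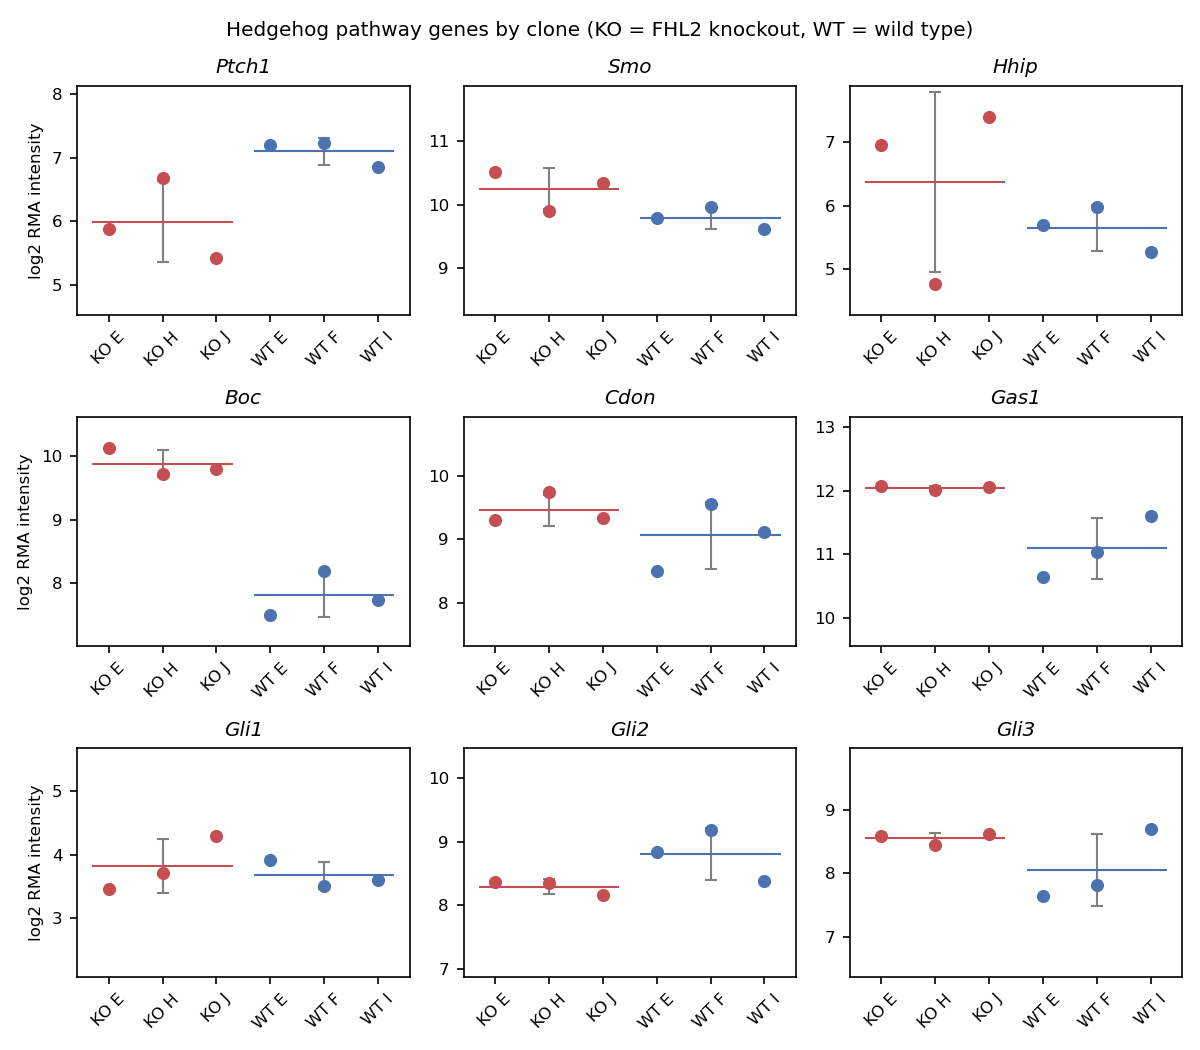
Log2 RMA intensity of the 9 genes (1 panel each, all panels spanning the same number of log2 units) in knockout clones (red, left) and wild type clones (blue, right). Points are clones, coloured lines are group means and grey bars are the SD (n = 3). Boc and Gas1 are higher in every knockout clone than in any wild type clone, Ptch1 and Gli2 are lower, and Hhip is split within the knockout clones.

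Fhl2 itself checks the labels. It read 6.01, 6.44 and 6.57 in KO-E, KO-H and KO-J, against 9.88, 8.57 and 9.64 in WT-E, WT-F and WT-I (difference -3.02, SE 0.35, limma adjusted p = 0.00400); no source used here says whether its probe set lies in the deleted part. Array medians ran from 4.52 to 4.54 in knockout clones and from 4.44 to 4.46 in wild type. Correlations across genes were 0.988 to 0.991 among wild type clones and 0.991 between KO-E and KO-J, but 0.964 and 0.968 between KO-H and these 2. Xist, the RNA made from the inactive X chromosome of female cells, read 5.03, 9.82 and 5.11 in KO-E, KO-H and KO-J, against 4.69 to 5.0 in wild type clones. The Y-linked gene Eif2s3y read 7.69, 2.92 and 8.79 in KO-E, KO-H and KO-J, against 7.47 to 7.96 in wild type, and Kdm5d 6.55, 2.34 and 7.72, against 6.5 to 6.70 in wild type; these 3 genes were chosen after their values were seen. KO-H thus differs from the other 5 clones in sex-linked transcripts as well, and the part of this in the results was not tested. The mean level of 12 fibroblast markers was 11.9 to 12.1 in knockout clones and 11.1 to 11.7 in wild type, with Col1a1, Col1a2 and Vim above 12.7 in every clone. Of the 12, Lum (4.81), Dcn (2.04) and Pdgfra (1.76) rose, while Thy1 fell by 1.34 and Pdgfrb by 0.64. The list means of blood, epithelial and skeletal muscle markers overlapped between genotypes, at 4.19 to 4.97. Of the epithelial markers Epcam rose by 0.43 (limma adjusted p = 0.0327) and the others did not pass, Krt5 at 0.33 and Krt18 at -1.01 among them. The mean of 4 smooth muscle markers was 7.08 and 7.03 in KO-E and KO-J, 10.6 in KO-H and 9.76 to 10.7 in wild type clones. That of 4 cartilage markers was 6.84 and 6.37 in KO-E and KO-J, 4.65 in KO-H and 4.53 to 4.73 in wild type clones. Endothelial markers averaged 4.59 to 5.38 in knockout, against 3.57 to 4.19 in wild type (4 genes), and neural markers 4.61 to 5.36 in knockout, against 5.64 to 6.05 in wild type (4 genes). Single genes carried both means. In the first list Tek rose by 4.27, with Pecam1 (0.25), Cdh5 (0.37) and Kdr (-0.30) not passing. In the second Tubb3 fell by 3.20 and Nes by 0.81, with Sox2 (0.04) and Sox10 (0.13) not passing. The smooth muscle and cartilage lists set KO-H beside wild type, and the part of any marker list in the results that follow was not tested. In bulk RNA, fewer cells that express a gene and less RNA per cell cannot be told apart.

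Promoter windows of Gas1 and Ptch1 are shown because Gas1 rose and Ptch1 is the target gene nearest to the threshold. Each runs from 250 bases before to 50 after 1 transcription start of the gene in RefSeq on GRCm38.p6, minus strand, printed 5′ to 3′. Gas1 lies at chr13:60177486-60177785 and Ptch1 at chr13:63565686-63565985. The Gas1 start is the end of the annotated gene, while that of Ptch1 lies 7725 bases inside it, so other Ptch1 starts are not covered. Capitals mark the GC box GGGCGG, or its reverse complement, which binds Sp1-type factors.
Gas1: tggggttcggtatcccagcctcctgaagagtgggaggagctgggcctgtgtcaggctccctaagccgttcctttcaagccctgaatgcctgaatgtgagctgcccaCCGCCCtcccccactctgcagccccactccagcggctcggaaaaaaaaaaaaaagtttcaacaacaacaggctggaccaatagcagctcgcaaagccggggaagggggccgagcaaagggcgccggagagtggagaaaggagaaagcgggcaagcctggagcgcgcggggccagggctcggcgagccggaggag
Ptch1: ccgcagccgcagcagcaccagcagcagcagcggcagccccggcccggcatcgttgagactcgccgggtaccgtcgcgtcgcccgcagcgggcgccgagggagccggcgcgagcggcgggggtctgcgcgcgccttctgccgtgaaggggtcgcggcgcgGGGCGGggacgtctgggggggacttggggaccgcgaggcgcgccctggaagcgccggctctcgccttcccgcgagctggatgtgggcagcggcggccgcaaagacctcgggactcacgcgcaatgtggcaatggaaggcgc
RefSeq windows were at hand for 7 of the 9 genes (Gli2, Gli3, Ptch1, Smo, Hhip, Gas1 and Cdon), that of Cdon at a start 30548 bases inside the annotated gene. The Gli consensus GACCACCCA, searched on both strands, was in 0 of these 7 windows and in 0.253% of 32851 windows of 300 bases. With any base at the fifth position (GACCNCCCA) it was again in 0 of 7, and in 0.977% of all windows. The GC box was in 5 of 7, all but those of Smo and Cdon, and in 35.7% of all windows. Counted from the start of each window's transcript, its first base is at -144 in Gas1 and at -91 in Ptch1. These are matches of letters and say nothing about which factors bind.

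Ptch1, the ligand receptor, read 5.88, 6.67 and 5.42 in KO-E, KO-H and KO-J, against 7.20, 7.23 and 6.85 in WT-E, WT-F and WT-I. All knockout clones lay below all wild type clones, with KO-H nearest to them. The means were 5.99 ± 0.636 in knockout clones and 7.10 ± 0.214 in wild type (SD, n = 3 each), a difference of -1.10 (SE 0.32, 95% interval -1.87 to -0.34), which did not pass (limma adjusted p = 0.0564). The outcome turned on KO-H: without it the difference was -1.45 and passed (adjusted p = 0.00322). It also passed when arrays were centred on their medians (-1.18, adjusted p = 0.0488), with array weights (-1.34, adjusted p = 0.00999) and among the more highly expressed genes alone (adjusted p = 0.0387). The array weight of KO-H was 0.385, against 1.07 to 1.56 for the other clones. The weighted fit is thus not separate from the fit without KO-H. The other 2 Ptch1 probe sets did not show the drop. One, at 4.85 to 5.33 in knockout clones and 5.13 to 5.38 in wild type, differed by -0.13 (SE 0.15). The other, near the lower end of the scale at 2.91 to 3.15 in knockout clones, against 2.85 to 3.16 in wild type, differed by 0.08 (SE 0.13). With all 3 averaged the Ptch1 difference was -0.38 (adjusted p = 0.107).

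Smo, the membrane protein that Ptch1 restrains, acts in the primary cilium once released. Its levels were 10.5, 9.90 and 10.3 in KO-E, KO-H and KO-J, against 9.79, 9.97 and 9.62 in wild type clones. KO-E and KO-J lay above all wild type clones and KO-H within their range. The difference of 0.46 (SE 0.19, 95% interval 0.02 to 0.91) did not pass (limma adjusted p = 0.138), though it did without KO-H (0.64, adjusted p = 0.0202) and with array weights (0.57, adjusted p = 0.0346), which give KO-H the lowest weight. A second Smo probe set gave 0.37 (SE 0.18), and the last stayed between 2.50 and 2.81 in all clones.

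Hhip, the decoy receptor, showed the widest spread of the 9 genes. It read 6.96, 4.77 and 7.41 in KO-E, KO-H and KO-J, against 5.69, 5.99 and 5.27 in WT-E, WT-F and WT-I. KO-E and KO-J lay above every wild type clone and KO-H below every one. The knockout mean was 6.38 ± 1.41, against 5.65 ± 0.358 in wild type (SD, n = 3 each), and the difference of 0.72 (SE 0.67, 95% interval -0.88 to 2.33) did not pass (limma adjusted p = 0.509). The split was the same in all 4 Hhip probe sets: KO-H read 4.55, 4.60 and 3.08 in the others, below wild type lows of 5.35, 4.75 and 3.59. Without KO-H the Hhip difference was 1.53 and passed (adjusted p = 0.00566), a value that rests on 2 knockout clones. KO-H is also the knockout clone whose mean smooth muscle and cartilage marker levels lay in the wild type range. Single markers such as Myh11 (6.89, against 4.02 to 5.01 in wild type clones) lay outside it. KO-H is the only clone of the 6 with high Xist and low Eif2s3y and Kdm5d. Whether any of this bears on Hhip was not tested.

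**Figure D2:**
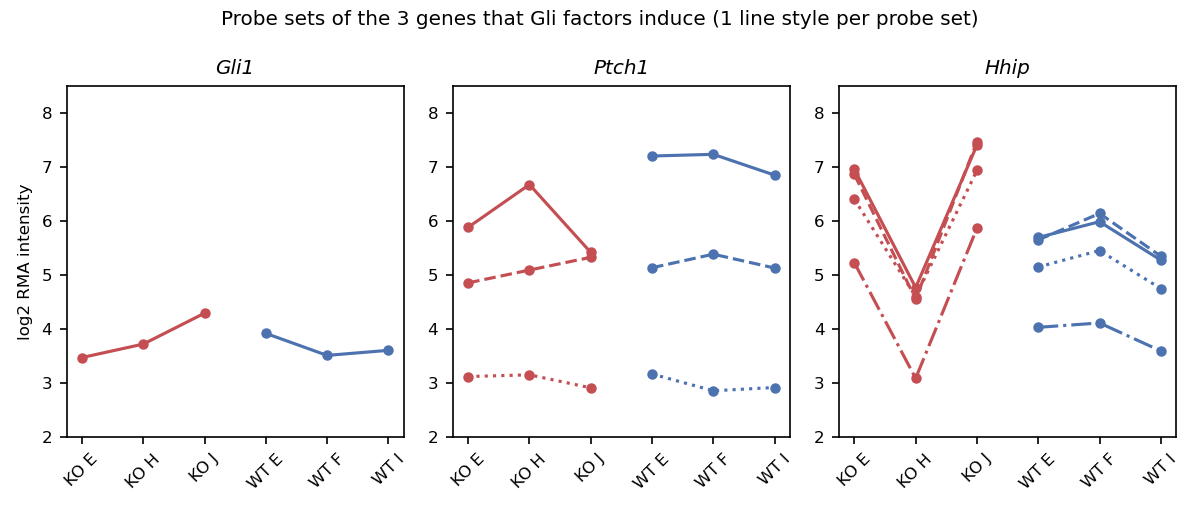
Log2 RMA intensity of every probe set of Gli1 (1), Ptch1 (3) and Hhip (4) in knockout clones (red, left) and wild type clones (blue, right); each line style is 1 probe set, and lines join clones only to show which points share a probe set. All Hhip probe sets dip in KO-H, while the genotypes part in 1 of the 3 Ptch1 probe sets.

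Of the co-receptors, Boc, an immunoglobulin and fibronectin repeat protein that binds ligand, changed most. It read 10.1, 9.73 and 9.80 in KO-E, KO-H and KO-J, against 7.51, 8.20 and 7.75 in WT-E, WT-F and WT-I. The lowest knockout clone stood well clear of the highest wild type clone, and KO-H sided with its genotype here. The Boc means were 9.89 ± 0.215 in knockout clones and 7.82 ± 0.351 in wild type (SD, n = 3 each), a rise of 2.07 (SE 0.21, limma adjusted p = 0.00256). A second probe set gave a rise of 2.35 (SE 0.27, adjusted p = 0.00431 with every probe set tested). The last lay at 2.95 to 3.09 in knockout clones and 2.65 to 3.14 in wild type, near the lower end of the scale, and did not separate them. The Boc call held in all 14 alternative settings, at 1.51 to 2.35, and by size of difference Boc ranked 479th of 18193 genes.

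Gas1, a surface protein anchored by a lipid that also binds ligand, was first known as a gene induced by growth arrest. It read 12.08, 12.02 and 12.05 in KO-E, KO-H and KO-J, against 10.6, 11.0 and 11.6 in WT-E, WT-F and WT-I. The knockout clones were almost equal, and the spread lay among the wild type clones. The Gas1 means were 12.05 ± 0.0282 in knockout clones and 11.1 ± 0.481 in wild type (SD, n = 3 each), a rise of 0.96 (SE 0.23, limma adjusted p = 0.0359). The highest values on the arrays were 13.6 to 13.7. The other 2 Gas1 probe sets were also free of overlap, at 1.13 (SE 0.22, adjusted p = 0.0175 with every probe set tested) and 0.59 (SE 0.17, adjusted p = 0.0586). The call was lost without KO-E (0.94, adjusted p = 0.0968), KO-J (0.95, adjusted p = 0.106), WT-E (0.73, adjusted p = 0.0804) or WT-F (0.92, adjusted p = 0.106).

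Cdon, the relative of Boc with a similar domain order, did not pass. It read 9.30, 9.74 and 9.33 in KO-E, KO-H and KO-J, against 8.51, 9.56 and 9.12 in wild type clones, with the groups overlapping. The difference of 0.39 (SE 0.28, 95% interval -0.28 to 1.07) did not pass (limma adjusted p = 0.382), nor did the second Cdon probe set (0.10, SE 0.27). The difference between the changes of Boc and Cdon was not tested.

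Gli1, the Gli factor that is made only where the pathway is active, was read near the lower end of the scale in all clones. It gave 3.47, 3.72 and 4.29 in KO-E, KO-H and KO-J, against 3.92, 3.51 and 3.60 in wild type clones. Its mean lay at percentile 24.9 of all gene means, and the groups overlapped. The difference of 0.15 (SE 0.23, 95% interval -0.41 to 0.71) did not pass (limma adjusted p = 0.705), and its sign turned without KO-J (-0.08). At such a level an array can miss a difference in the RNA.

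Gli2, the main activator in most tissues, pointed down. It read 8.37, 8.35 and 8.16 in KO-E, KO-H and KO-J, against 8.84, 9.19 and 8.38 in WT-E, WT-F and WT-I. The groups did not overlap, but WT-I lay next to the highest knockout clone. The difference of -0.51 (SE 0.21, 95% interval -1.02 to -0.01) did not pass (limma adjusted p = 0.143), except without WT-I (-0.72, adjusted p = 0.0437). The second Gli2 probe set gave -0.45 (SE 0.20), with overlap.

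Gli3, the main source of the repressor form, pointed up. It read 8.58, 8.45 and 8.61 in KO-E, KO-H and KO-J, against 7.64, 7.82 and 8.70 in WT-E, WT-F and WT-I. WT-I thus stood apart from the other wild type clones and above every knockout clone. The 3 Gli3 probe sets gave differences of 0.49, 0.49 and 0.54, and none passed (0.49, SE 0.27, limma adjusted p = 0.266 for the leading one). Without WT-I the Gli3 difference was 0.82 and passed (adjusted p = 0.0206). The genes around Gli3 on chromosome 13 also differed between clones, most in WT-I. The median deviation of the 40 nearest measured genes from their means was 0.44 in WT-I and 0.07 and 0.00 in WT-E and WT-F. It was -0.22, 0.03 and -0.22 in KO-E, KO-H and KO-J. With that regional median subtracted in each clone, the Gli3 difference was 0.80 and passed (adjusted p = 0.0421). The part of the region in the Gli3 values was not tested. Around the other 8 genes the regional deviations lay between -0.13 and 0.15 in every clone, and subtracting them left the Boc rise at 2.07 and the Gas1 rise at 1.01.

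**Figure D3:**
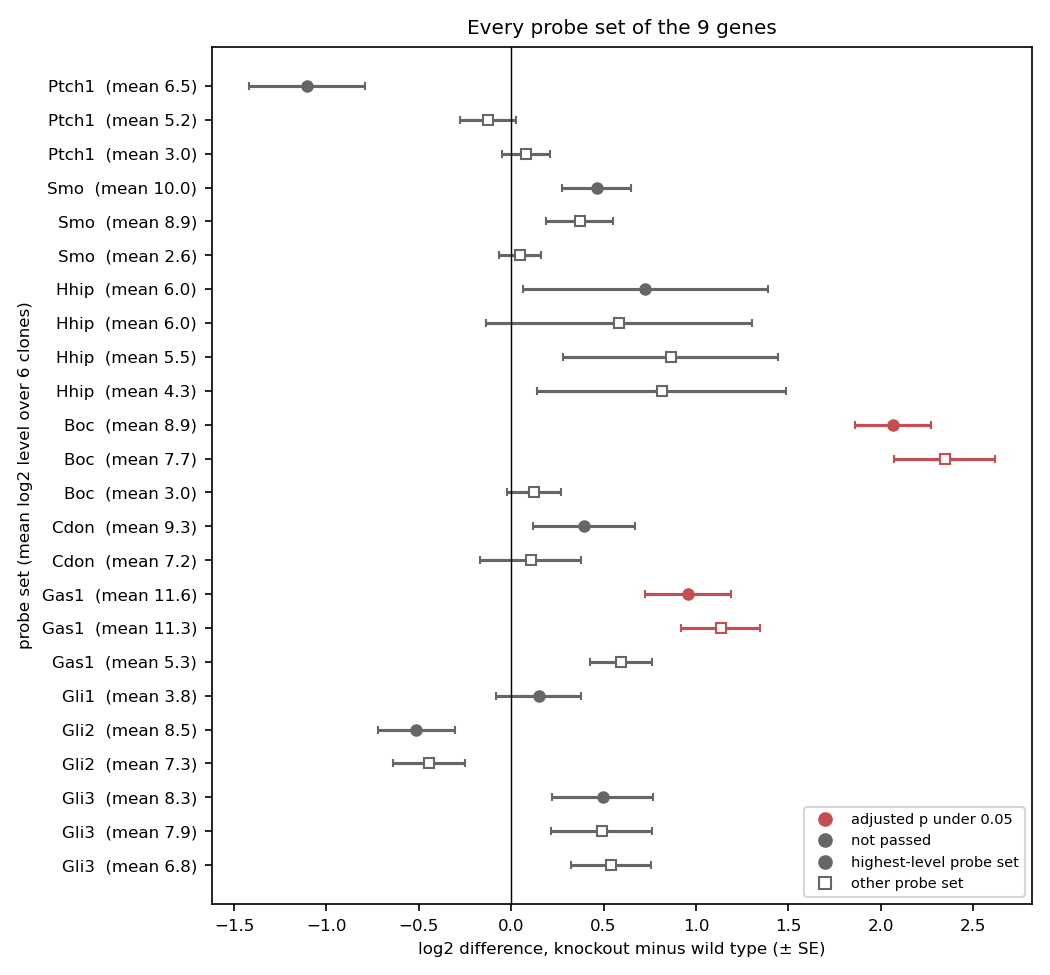
Log2 difference (knockout minus wild type, bars ± SE, n = 3 each) for all 24 probe sets of the 9 genes, labelled by gene with the mean log2 level over 6 clones; filled circles lead their gene, open squares do not, and red marks an adjusted p under 0.05 with every probe set tested. The 4 red probe sets belong to Boc and Gas1.

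Read probe set by probe set, 4 of the 24 passed, all higher in knockout clones, where 16.8% of the 34945 probe sets passed. They were the 2 more highly expressed probe sets of each of Boc and Gas1. Non-overlap held for 7 of the 24, and for 36.9% of all 34945. The 3 probe sets with means of about 3 or less (1 each of Ptch1, Smo and Boc) showed no separation by genotype.

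**Figure D4:**
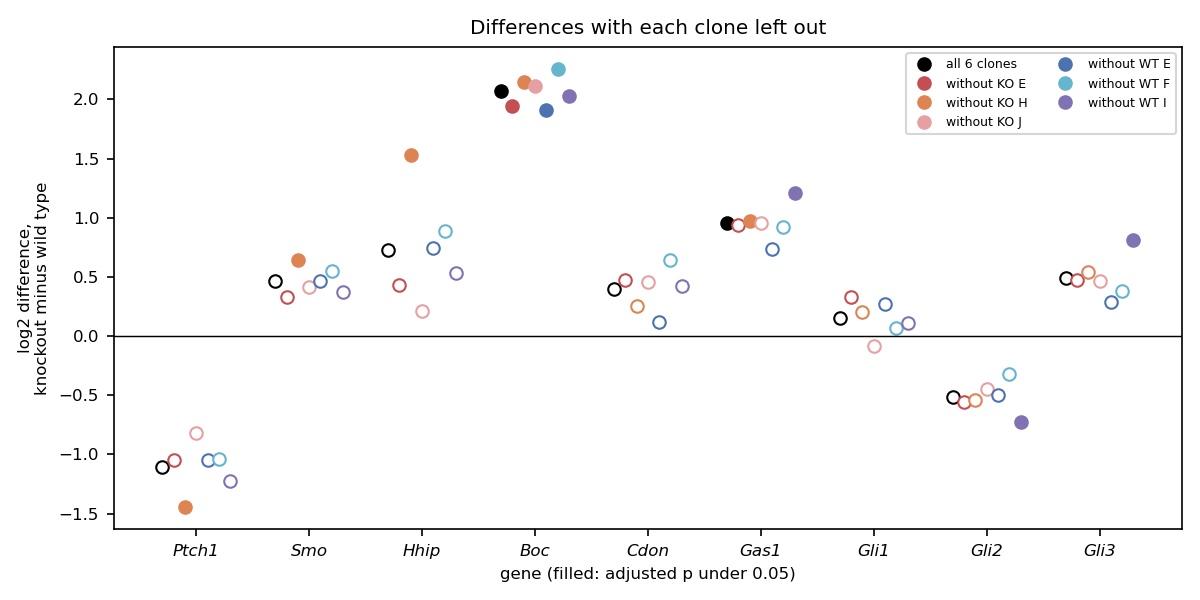
Log2 difference (knockout minus wild type) of the 9 genes with all 6 clones (black) and with each clone left out (colours); filled points have an adjusted p under 0.05. Boc stays filled throughout, Gas1 stays filled without KO-H or WT-I, and Ptch1, Smo and Hhip fill only without KO-H.

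In the 6 fits that leave out 1 clone, the count of the 9 genes that rose ran from 1 to 4 and the count that fell from 0 to 1. The 4 risen genes without KO-H were Boc, Gas1, Smo and Hhip, and the fallen one was Ptch1. Among all genes the number called ran from 1661 to 4750 over these fits, against 3464 with all clones, and the highest count was the one without KO-H.

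As a description over the 6 arrays, the levels most like those of Boc were those of Gpatch11 (Pearson r = 0.999), Frem1 (0.997) and Zhx1 (0.996), and 491 genes had an r over 0.95. Those most like Gas1 were Prss28 (0.996), Ankrd61 (0.989) and 1700067K01Rik (0.988), all 3 low on the scale, with 122 genes over 0.95. The 3 genes most like Boc rose (limma adjusted p = 0.00214 to 0.011), while the 3 most like Gas1 did not pass (0.112 to 0.214). Each of these r values includes the split by genotype.

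Among 82 measured genes of the wider pathway, 20 rose, 6 fell and the others did not pass, and 12 of these 26 calls held whichever clone was omitted. As shares, 24.4% rose and 7.32% fell, against 9.04% and 10.0% of all genes, and 46.2% of the calls held, against 39.5% of all 3464 calls. The lists were chosen with earlier results of these data known, so these shares only describe them. The shares of all genes that rose or fell are also lower than those among genes at or above the median level. For the lists that follow, the same measures over all genes are 16.7% higher and 16.5% lower at an unadjusted p under 0.05 (limma), 56.4% above 0 and a median of 0.04. None of the 3 ligands passed. Shh read 5.16 to 5.21 in knockout clones and 5.06 to 5.32 in wild type (difference -0.03, SE 0.11). Ihh read 3.64 to 3.88 in knockout, against 3.50 to 3.79 in wild type (0.14, SE 0.12). Dhh read 3.97 to 4.48 in knockout, against 3.95 to 4.11 in wild type (0.10, SE 0.16). The genotypes overlapped in each. Of 9 genes for ligands, their processing and release, 1 rose and 0 fell (1 and 0 at an unadjusted p under 0.05, limma; median 0.10). The gene that rose was Scube3, a secreted protein of the family that helps release lipid-bearing ligand. It read 4.38, 4.37 and 4.15 in KO-E, KO-H and KO-J, against 3.18, 3.13 and 3.20 in wild type clones (1.13, SE 0.10, limma adjusted p = 0.00214). The wild type level of Scube3 lies at percentile 14.6, near the lower end of the scale, where the size of a difference is uncertain, and the filter at the median level leaves the gene out, so that 0 genes of this list rose.

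Of 9 other receptors and modulators, 2, both glypicans, rose and 0 fell (3 and 1 at an unadjusted p under 0.05, limma; median 0.25). Gpc3, a cell surface proteoglycan that competes with Ptch1 for ligand in mice, read 10.5, 7.19 and 10.4 in KO-E, KO-H and KO-J, against 4.57, 4.29 and 4.57 in wild type clones. KO-H lay between the other knockout clones and wild type. The rise of 4.87 (SE 0.86, limma adjusted p = 0.0129) was lost without WT-E (adjusted p = 0.0545) or WT-F (0.0506). Gpc6, a related glypican, read 9.61, 10.1 and 9.62 in knockout clones, against 7.66, 7.91 and 7.75 in wild type clones (2.0, SE 0.17, adjusted p = 0.00172); averaging its probe sets gave 1.26.

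Of 18 transducers between Smo and Gli, 2 rose and 3 fell (4 and 5 at an unadjusted p under 0.05, limma; median -0.08). Sufu, which holds Gli proteins in the cytoplasm and is a main brake on the pathway, read 8.39, 8.24 and 8.19 in KO-E, KO-H and KO-J, against 7.37, 7.61 and 7.35 in wild type clones. It rose by 0.83 (SE 0.12, limma adjusted p = 0.00684). The average of its 3 probe sets differed by 0.41 and did not pass (adjusted p = 0.0772). Kif7, a ciliary kinesin that organizes Gli and Sufu at the cilium tip, rose by 0.72 (SE 0.15, adjusted p = 0.0201). The Kif7 call was lost without any 1 of KO-E and the 3 wild type clones (adjusted p = 0.0561 to 0.0767) and after the regional median was subtracted (0.0809). Among those that fell, Prkar2a, a regulatory subunit of protein kinase A, read 8.0, 8.48 and 7.94 in knockout and 9.70, 9.39 and 9.39 in wild type clones (-1.36, SE 0.18, adjusted p = 0.00567). Arrb1, a beta-arrestin, fell by 1.02 (SE 0.14, adjusted p = 0.00633), from 4.88 to 5.14 in wild type clones to 3.78 to 4.14 in knockout. The mean level of Arrb1 lies at percentile 36.4, so the filter at the median level leaves it out. Fbxw11, a ubiquitin ligase subunit that marks Gli proteins for processing, fell by 0.70 (SE 0.14, adjusted p = 0.0211). It no longer passed without KO-E, KO-J, WT-E or WT-I (0.0612 to 0.0724) and with probe sets averaged (-0.36, 0.139).

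The primary cilium is the organelle in which Smo meets the Gli factors. Of 20 listed cilium genes, which are not all needed for signalling, 8 rose and 0 fell (10 and 1 at an unadjusted p under 0.05, limma), 17 lay above 0 and the median was 0.27, where 9.04% of all genes rose, 56.4% lay above 0 and the median was 0.04. Tctn1, B9d1, Mks1 and Tctn2 encode parts of the transition zone, the gate at the cilium base. Tctn1 read 6.98, 7.13 and 6.96 in KO-E, KO-H and KO-J, against 5.77, 5.60 and 5.60 in wild type clones (1.37, SE 0.11, adjusted p = 0.00147). B9d1 read 7.88, 7.60 and 7.69 in knockout, against 6.58, 6.80 and 6.20 in wild type clones (1.20, SE 0.18, adjusted p = 0.00737). Both calls held with any clone left out. Mks1 rose by 1.25 (SE 0.26, adjusted p = 0.0217), Ift88, of the transport machinery that builds the cilium, by 0.59 (SE 0.14, adjusted p = 0.0301), and Tctn2 by 0.51 (SE 0.13, adjusted p = 0.0375). The calls of Mks1 and Ift88 were lost without KO-E, KO-J, WT-E or WT-F (0.0667 to 0.102), and that of Tctn2 without any clone other than WT-F (0.0580 to 0.122). The count of cilium genes that rose was 5 with a trended robust prior, 4 with arrays centred on their medians and 5 with the regional median subtracted. With 1 clone omitted it was 2 without KO-E, KO-J or WT-E, 3 without WT-F, 4 without WT-I and 6 without KO-H. The count of cilium genes that fell was 1 with arrays centred, with the regional median subtracted, among genes at or above the median level, with array weights and without KO-H.

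Listed target genes outside the 9 moved both ways: of 20, 6 rose and 3 fell (7 and 3 at an unadjusted p under 0.05, limma; median 0.28). Osr1 and Osr2, zinc finger factors of mesenchyme, rose by 1.80 (SE 0.26, limma adjusted p = 0.00688) and 3.88 (SE 0.62, adjusted p = 0.00972), with Osr2 at 2.64 with its probe sets averaged and 1.40 without probe sets of the _x_at, _s_at and _a_at kinds. Osr1 read 11.1, 10.9 and 11.2 in KO-E, KO-H and KO-J, against 9.35, 9.71 and 8.71 in wild type clones. Snai1, a repressor of epithelial genes, rose by 0.93 (SE 0.15, adjusted p = 0.0105). D cyclins drive entry into S phase and respond to many signals besides Hedgehog. The listed ones, Ccnd1 and Ccnd2, fell, and Ccnd3 was not in the list. Ccnd2 fell by 1.26 (SE 0.18, adjusted p = 0.00703) and Ccnd1 by 1.70 (SE 0.33, adjusted p = 0.0177), the second lost without WT-E (0.0731) or WT-F (0.0605). The number of risen target genes was 3 without KO-J, WT-E or WT-I, and the number that fell was 1 without WT-F. Of 6 related Glis and Zic factors, 1 rose and 0 fell (2 and 0 at an unadjusted p under 0.05, limma; median 0.35). It was Glis1, a zinc finger factor related to the Gli family, by 1.05 (SE 0.14, adjusted p = 0.00611), at 6.82, 7.06 and 6.76 in KO-E, KO-H and KO-J, against 5.99, 5.89 and 5.61 in wild type clones.

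**Figure D5:**
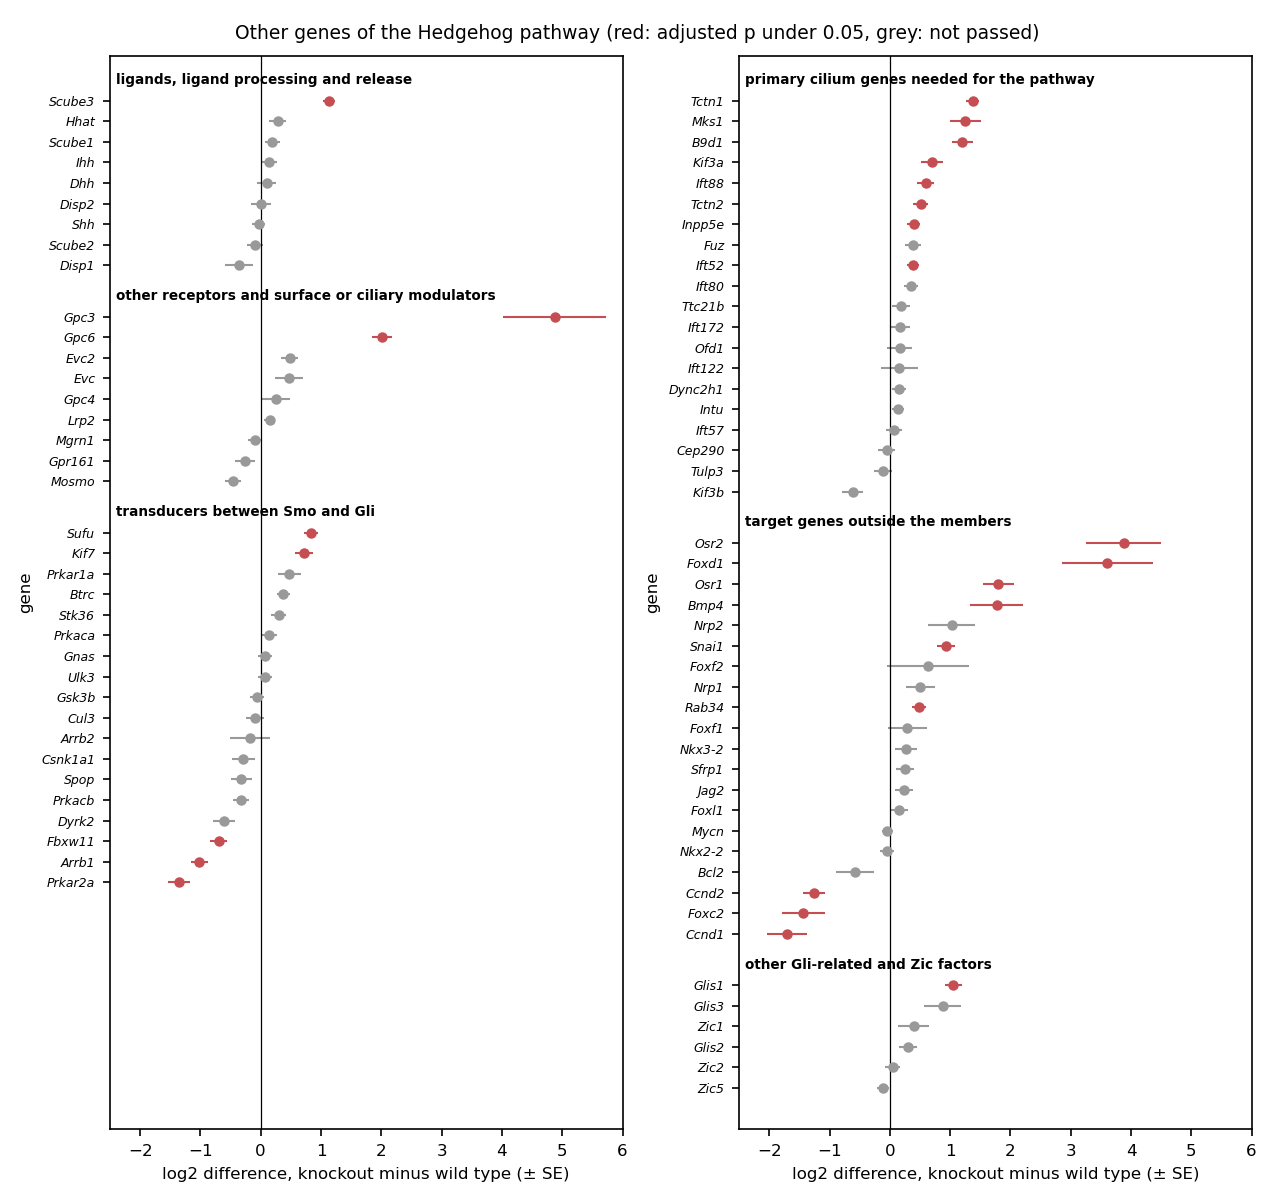
Log2 difference (knockout minus wild type, bars ± SE, n = 3 each) of 82 other pathway genes in 6 lists, sorted by size within a list; red marks an adjusted p under 0.05 over all 18193 genes. Cilium genes lie mostly right of 0, with 8 of 20 in red, while transducers and targets hold red points on both sides.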

How the data were processed

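Total RNA of 6 clones was biotin-labelled and hybridised to 1-colour Affymetrix arrays, 1 per clone. Deposited are RMA intensities on the log2 scale, per the submitters' processing notes, with no version or settings stated. Values of WT-E have more decimals than the others, and whether that array was processed separately is not stated; its correlation with WT-F was 0.991. Results without it are given with each call that they change. Arrays have no read depth: 3 clones per genotype (4 residual degrees of freedom) limit the precision.

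Of 45101 probe sets, 64 controls, 932 with several symbols and 9160 without a symbol were left out. Symbols came from the platform annotation; 34741 of 34945 probe sets matched RefSeq (GRCm38.p6) by gene ID, and 0 symbols changed. The probe set of highest mean stood for its gene, and knockout was compared with wild type by limma 3.58.1 in R 4.3.3 (lmFit, eBayes, genotype alone) over all 18193 genes, with Benjamini-Hochberg adjustment at 0.05. The fit was checked on simulated data. Figures used matplotlib 3.10.9 in Python 3.11.15.

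The 9 genes, the lists and the alternatives were chosen with earlier results of these data known. Named were Fhl2, the 9 genes, Shh, Ihh, Dhh, Sufu, up to 5 passing genes of each list by smallest p, and the 3 genes most like each passing member. Alternatives were a trended robust prior, renewed quantile normalization, median centring, a filter at the median level, averaged or separate probe sets, omission of _x_at, _s_at and _a_at probe sets, array weights, subtraction of the median deviation of the 40 nearest genes, and omission of each clone.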

Additional observations from a re-analysis of the deposited data

How the results depend on the processing

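Boc passed in all 14 alternative settings. Of 125 values of the 9 genes under these settings, 110 kept their direction and side of the threshold, 10 passed where they had not, 4 (all of Gas1, each without 1 clone) no longer passed, and 1 changed sign: Gli1 without KO-J, at -0.083 (0.33 at most, without KO-E). The count of the 9 that fell was 1 in place of 0 with median centring, among genes at or above the median level and with array weights, Ptch1 each time. It ran from 0 to 1, and the count that rose from 1 to 4, with each clone left out. The number of genes called ran from 1661 to 4750 with each clone left out (777 to 2304 higher and 884 to 2446 lower), and 5876 probe sets passed when each was tested. Shh changed sign with probe sets averaged (0.037) and ranged from -0.11 without WT-F to 0.018 without WT-E. Ihh changed sign with the regional median subtracted (-0.036), and Dhh ranged from -0.069 without KO-E to 0.19 without KO-H. The cause of these shifts was not tested. No paired analysis was possible because only clone letter E occurs in both genotypes. Differences of genes read near the lower end of the scale (Gli1, Ihh, Dhh) may not be detectable.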
